A study of Mus musculus with 4 samples.

Results

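The genes described here are the 4 nuclear factor I (NFI) genes Nfia, Nfib, Nfic and Nfix, together with Zbtb20, Hopx, Zbtb18 and Tcf4, a set of regulators associated with late cortical progenitors and the neurons and glia they produce. They were chosen by symbol, with no measured value in the rule. All 8 were found among the 13289 genes of the count table. All 8 passed the low-count filter, as did 13288 of the 13289 genes. The samples were mouse cerebral cortex at embryonic day 15 (E15), in 2 control libraries, titled WT, and 2 Lhx2 cKO libraries, where cKO is read as conditional knockout. Lhx2 encodes a LIM-homeodomain factor of cortical progenitors. The Cre driver, the Lhx2 allele, the strain and the number of embryos per library are not given in the sources used here, nor whether the libraries came from separate animals. P-values therefore measure only the spread between these libraries, which may be technical. In the test used for single genes, that spread was estimated in part from all genes tested.

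The NFI proteins bind DNA as dimers at a palindromic site and are known in the embryonic cortex for promoting the differentiation of radial glia, the onset of gliogenesis and the formation of the corpus callosum. Zbtb20 and Zbtb18 encode BTB zinc finger repressors: the first is known for its part in hippocampal identity, late-born neurons and astrocyte production, and the second for repressing Id and proneural genes as neurons differentiate. Hopx encodes a homeodomain-only protein that marks outer radial glia, and Tcf4 encodes an E protein, the common partner of proneural basic helix-loop-helix (bHLH) factors. Tcf4 is a different gene from the Wnt effector Tcf7l2.

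Total counts ranged from 22294237 to 24609627 per library. Lhx2 itself was at 316 and 287 CPM (counts scaled to the size of the library) in control, and 239 and 247 CPM in Lhx2 cKO, which gave a change of -0.31 ± 0.098 (SE) in log2 with an adjusted p = 0.0191 in edgeR's quasi-likelihood test. It was called in 1 of the 4 fits that left out 1 library. Which part of the gene was targeted is not stated, so that this value is a limited check of the labels. The cortical markers Emx1, Emx2, Neurod6 and Tbr1 were all present, and their summed level was 961 to 1010.0 CPM in control and 793 to 798 CPM in Lhx2 cKO. Of these, 3 were called lower, 0 higher and 1, Tbr1, was not called, where 9.17% of all tested genes were called lower. Emx1 was at 119 and 107 CPM in control and at 39.1 and 38.9 CPM in Lhx2 cKO. Of 9 markers of other brain regions only Lhx9 and Tcf7l2 were in the table, with a summed level of 6.02 to 8.001 CPM over the 4 libraries.

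Transcripts of all 4 NFI genes and of Tcf4 fell in the Lhx2 cKO cortex, while Zbtb18, Zbtb20 and Hopx did not pass the test. A gene is called here when its adjusted p is under 0.05 in edgeR's quasi-likelihood test of Lhx2 cKO against control. By that rule 5 of the 8 genes were called lower, 0 were called higher and 3 were not called. Over all 13288 genes tested, 20.8% were called in either direction and 9.17% were called lower. The median log2 fold change was -0.34 over the 8 genes and 0.003 over all genes tested. For 6 of the 8 genes the Lhx2 cKO libraries were lower without overlap, as they were for 29.1% of all genes tested. In bulk tissue, fewer cells that express a gene and less RNA per cell cannot be told apart.

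**Figure D1:**
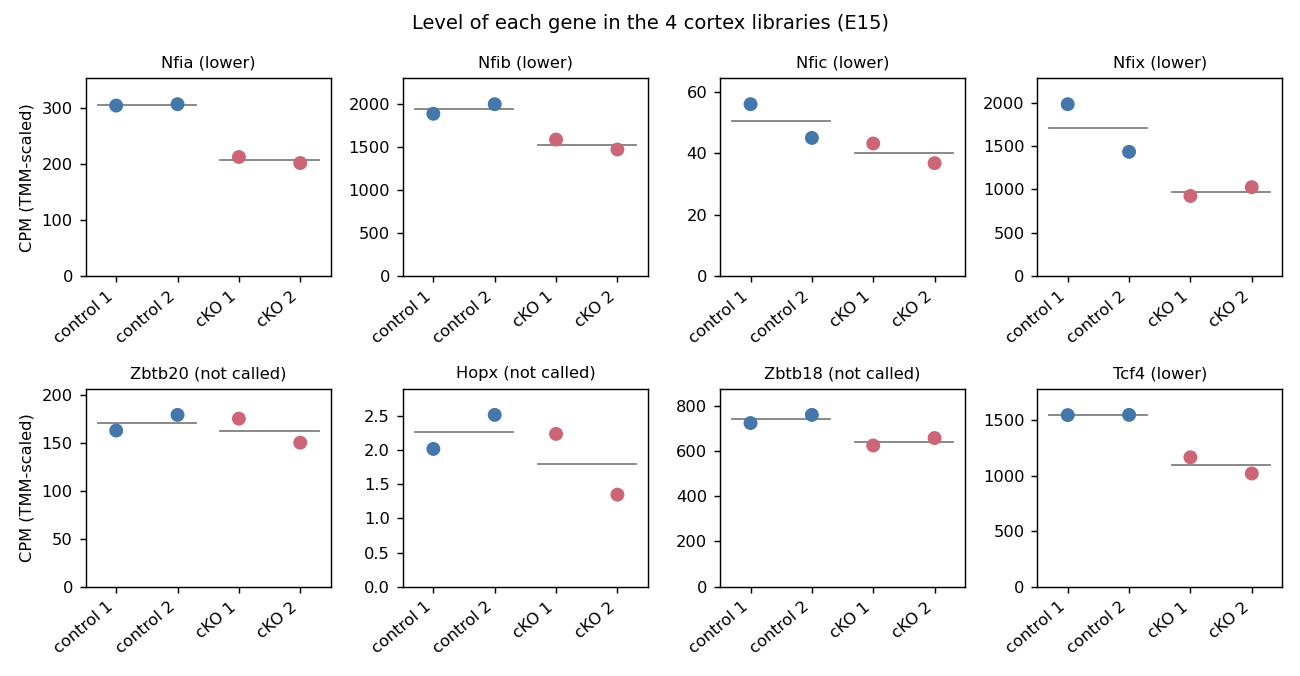
Level of each of the 8 genes in CPM (linear axis from 0) in the 2 control libraries (blue) and the 2 Lhx2 cKO libraries (red), with the mean of each group as a grey line. The groups do not overlap for the 4 NFI genes, Zbtb18 and Tcf4, and they overlap for Zbtb20 and Hopx. Among all tested genes they do not overlap for 59.3%, and for 29.1% with Lhx2 cKO lower.

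Nfix (ENSMUSG00000001911.17, chromosome 8) showed the largest decrease of the 8 genes. It was at 1982 and 1432 CPM in control and at 922 and 1024 CPM in Lhx2 cKO, so the groups did not overlap, although the control libraries lay far apart. The means were 1707 ± 389 and 973 ± 71.8 CPM (SD, n = 2), a decrease to 57.0% of control. Its log2 fold change was -0.81 (SE 0.125, adjusted p = 3.73e-06 in edgeR and 0.0077 in DESeq2), and 1.95% of all tested genes had a lower log2 fold change. Without control 1, the higher of the control libraries, it was -0.57 with an adjusted p of 0.00187, and without control 2 it was -1.03.

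Nfia (ENSMUSG00000028565.19, chromosome 4), which encodes the NFI factor best known for the onset of gliogenesis, had close replicates. It was at 304 and 306 CPM in control and at 212 and 201 CPM in Lhx2 cKO. Both Lhx2 cKO libraries were below both control libraries, and the mean was 67.8% of that in control. The log2 fold change was -0.56 (SE 0.0963, adjusted p = 2.14e-05 in edgeR), and it stayed between -0.60 and -0.53 when any 1 library was left out.

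Nfib (ENSMUSG00000008575.18, chromosome 4), known for its requirement in callosal and hippocampal development, was at 1887 and 1998 CPM in control and at 1587 and 1471 CPM in Lhx2 cKO. The groups did not overlap, and the mean was 78.7% of that in control. The log2 fold change of -0.35 (SE 0.116) had an adjusted p of 0.0281 in edgeR, and that call was lost without control 1 (0.0698), without control 2 (0.188) or without Lhx2 cKO 2 (0.158). Nfic (ENSMUSG00000055053.19, chromosome 10), the NFI gene best known outside the brain for tooth root development, was at 56.0 and 44.97 CPM in control and at 43.2 and 36.7 CPM in Lhx2 cKO. The lower control library was close to the higher Lhx2 cKO library, and the groups were separated by less than the gap between the control libraries. Its log2 fold change was -0.34 (SE 0.111, adjusted p = 0.0247 in edgeR). The call of Nfic was lost in DESeq2 (adjusted p = 0.0865), without control 1 (log2 fold change -0.18, adjusted p = 0.409) and without Lhx2 cKO 2 (-0.23, 0.306). Nfix and Nfia were called in each of the 8 alternatives with all libraries and in each of the 4 fits that left out 1 library.

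The promoters of Nfix and Nfia are shown because these were the NFI genes called under every alternative, and that of Zbtb20 because it was not called. RefSeq promoters (GRCm38.p6) were found for 6 of the 8 genes, with none for Nfib and Tcf4. The sequences are the 250 bases before the most upstream listed start, 5′ to 3′ on the gene's strand, at chr8:84780083-84780332 (minus strand) for Nfix, chr4:97581693-97581942 (plus strand) for Nfia and chr16:43247034-43247283 (plus strand) for Zbtb20. Capitals mark the homeodomain core TAATTA and the E-box CANNTG, the letters that E proteins such as the Tcf4 product are known to bind, on either strand.
Nfix: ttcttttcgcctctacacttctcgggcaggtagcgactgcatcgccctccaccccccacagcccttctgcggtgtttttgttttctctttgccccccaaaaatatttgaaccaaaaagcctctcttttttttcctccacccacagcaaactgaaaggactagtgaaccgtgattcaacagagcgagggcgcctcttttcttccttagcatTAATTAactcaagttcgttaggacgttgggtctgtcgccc
Nfia: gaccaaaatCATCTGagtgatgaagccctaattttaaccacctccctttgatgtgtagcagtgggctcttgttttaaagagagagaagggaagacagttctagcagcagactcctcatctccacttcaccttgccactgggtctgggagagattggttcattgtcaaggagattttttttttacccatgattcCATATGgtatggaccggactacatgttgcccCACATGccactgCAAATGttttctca
Zbtb20: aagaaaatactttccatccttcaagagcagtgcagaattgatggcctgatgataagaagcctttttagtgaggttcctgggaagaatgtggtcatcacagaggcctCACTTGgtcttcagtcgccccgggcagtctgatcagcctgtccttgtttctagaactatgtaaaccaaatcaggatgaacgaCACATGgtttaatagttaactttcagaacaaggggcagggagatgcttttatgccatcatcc
The Nfix window held 1 TAATTA, with its first base at position -40 from the start, and no E-box. The Nfia window held 4 E-boxes and no TAATTA, and that of Zbtb20 held 2 E-boxes and no TAATTA. Over the first windows of all 27026 RefSeq promoters, cut to the same length, 4.91% held TAATTA and 66.1% held an E-box. The NFI palindrome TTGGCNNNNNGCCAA was in none of the 6 windows and in 0.0407% of all of them. Its arm TTGGC, a part of the palindrome, was in 41.9% of all windows and in 1 of the 6, that of Hopx. A match is a run of letters and not a measured binding site.

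Per length, Nfix and Nfib made up most of the NFI transcripts. Levels between genes are compared as RPKM, the CPM per kilobase of the deposited gene length. In control, Nfix was at 270 and 195 RPKM, Nfib at 126 and 134, Nfia at 27.9 and 28.1, and Nfic at 8.44 and 6.78. In Lhx2 cKO, Nfix was at 125 and 139 RPKM, Nfib at 106 and 98.3, Nfia at 19.5 and 18.5, and Nfic at 6.51 and 5.54. The order Nfix, Nfib, Nfia, Nfic was the same in each of the 4 libraries.

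The summed NFI level was 432 and 363 RPKM in control and 258 and 262 RPKM in Lhx2 cKO. The means were 398 ± 48.6 and 260 ± 2.90 RPKM (SD, n = 2), and 65.3% of the control sum remained. The exact two-sided permutation p was 0.333, which is the smallest that 2 libraries against 2 can give. As shares of the sum, Nfix took 62.4% and 53.6% in control, against 48.7% and 53.2% in Lhx2 cKO, while Nfib took 29.2% and 36.8% in control, against 41.2% and 37.6% in Lhx2 cKO. The groups did not overlap in either share, but the gaps between them were smaller than the spread within control. The share of Nfia overlapped between the groups, at 6.45% and 7.74% in control, against 7.56% and 7.06% in Lhx2 cKO.

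**Figure D2:**
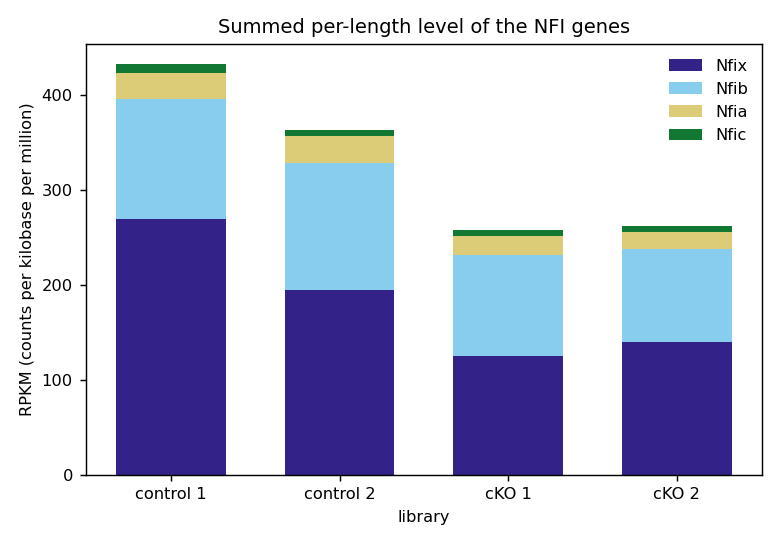
Summed per-length level of Nfix, Nfib, Nfia and Nfic in RPKM (bars from 0) in each library. The sum is 432 and 363 RPKM in control and 258 and 262 RPKM in Lhx2 cKO, and the Nfix segment accounts for most of the gap between the control libraries.

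Some reads of these genes may come from neighbours on the other strand, since the use of strand in the counting is not stated. In the GENCODE M21 annotation (GRCm38), exons of Nfia overlap those of E130114P18Rik, and exons of Nfix overlap those of Lyl1 and G430095P16Rik. E130114P18Rik was itself called lower, with 454 and 501 counts in control, against 244 and 249 in Lhx2 cKO, against 7361 and 7649 counts of Nfia in control. Lyl1 and G430095P16Rik had 54 to 116 counts per library, against 20984 counts or more of Nfix, and neither was called. Exons of Nfib and Tcf4 overlap no other gene in that annotation. Those of Nfic, Hopx, Zbtb18 and Zbtb20 overlap antisense genes, and Zbtb20 also the microRNA gene Mir568; these neighbours were not analysed here.

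Tcf4 (ENSMUSG00000053477.19, chromosome 18) fell with narrow spread in control. It was at 1546 and 1548 CPM in control and at 1166 and 1020.0 CPM in Lhx2 cKO, with no overlap. The means were 1547 ± 1.41 and 1093 ± 103 CPM (SD, n = 2), or 70.6% of control. The log2 fold change was -0.50 (SE 0.114, adjusted p = 0.00107 in edgeR), and it was called in each of the 4 fits that left out 1 library, with values from -0.60 to -0.41.

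The other E protein genes moved the same way as Tcf4. Tcf3 was at 245 and 224 CPM in control and at 181 and 165 CPM in Lhx2 cKO, a log2 fold change of -0.44 (adjusted p = 8.27e-04 in edgeR). Tcf12 was at 90.9 and 88.7 CPM in control and at 74.9 and 71.5 CPM in Lhx2 cKO, a log2 fold change of -0.30 (adjusted p = 0.0240). For both genes the groups did not overlap. Tcf4 took 45.9% and 48.1% of the summed E protein RPKM in control and 46.2% and 45.01% in Lhx2 cKO, overlapping ranges. These 3 genes were compared as a family after their values were seen.

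Zbtb18 (ENSMUSG00000063659.12, chromosome 1) was lower in both Lhx2 cKO libraries but did not pass the test. It was at 723 and 759 CPM in control and at 624 and 657 CPM in Lhx2 cKO. The groups did not overlap, as was the case for 59.3% of all tested genes, and with the Lhx2 cKO libraries lower for 29.1%. Its log2 fold change was -0.21 with a 95% interval from -0.42 to 0.003 (adjusted p = 0.162 in edgeR), and the adjusted p ranged from 0.0661 in DESeq2 to 0.179 over the alternatives that kept all libraries.

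Zbtb20 (ENSMUSG00000022708.17, chromosome 16) was at 163 and 179 CPM in control and at 175 and 150 CPM in Lhx2 cKO, so the groups overlapped. Its log2 fold change was -0.07 with a 95% interval from -0.27 to 0.13 (adjusted p = 0.666 in edgeR). Without Lhx2 cKO 2 the estimate was 0.03, of the opposite sign. The interval does not include a change as large as that estimated for Nfia, Nfib, Nfic, Nfix or Tcf4. The differences between genes were not tested.

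Hopx (ENSMUSG00000059325.15, chromosome 5) was the lowest of the 8 genes, with 49 and 63 counts in control, against 51 and 31 counts in Lhx2 cKO. These correspond to 2.02 and 2.52 CPM in control and to 2.24 and 1.35 CPM in Lhx2 cKO, all well above the floor of 3 counts, which is 0.120 to 0.132 CPM. The exact Poisson 95% intervals, which cover counting error only, ran from 1.94 to 3.23 CPM in control 2 and from 0.917 to 1.92 CPM in Lhx2 cKO 2, and the other libraries lay between these. The log2 fold change of -0.34 had a 95% interval from -1.10 to 0.42 (adjusted p = 0.582 in edgeR). Leaving out Lhx2 cKO 2 moved the estimate to -0.02, and leaving out Lhx2 cKO 1 moved it to -0.75. The interval includes 0 as well as the estimates of all 5 called genes.

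**Figure D3:**
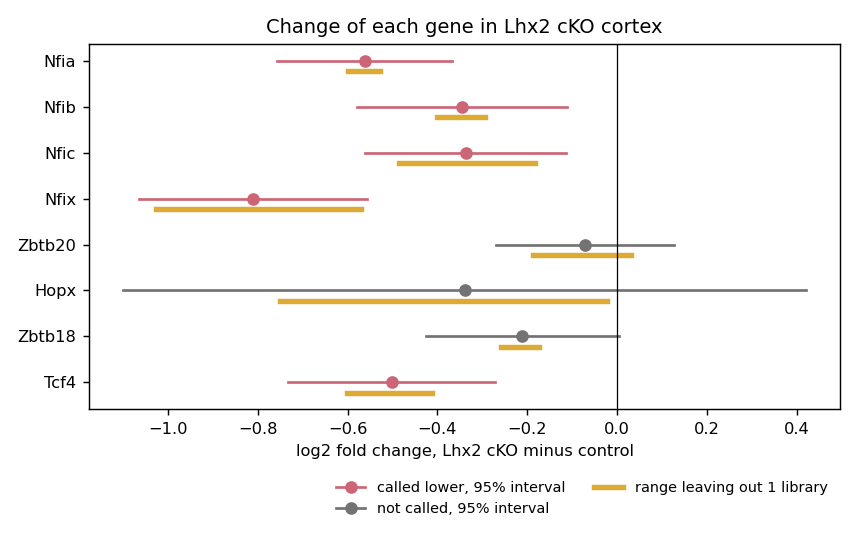
Log2 fold change of each gene, Lhx2 cKO minus control, with its 95% interval (points and thin lines, red where called lower, grey where not called) and the range of estimates when 1 library is left out (yellow bars). The intervals of the 4 NFI genes and Tcf4 lie below 0, and those of Zbtb18, Zbtb20 and Hopx include 0.

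On the per-length scale in control, the order of the levels was Nfix (232 ± 52.9 RPKM, SD, n = 2), Nfib (130 ± 5.28), Zbtb18 (121 ± 4.16), Tcf4 (56.5 ± 0.0516), Nfia (28.0 ± 0.161), Nfic (7.61 ± 1.17), Zbtb20 (5.56 ± 0.375) and Hopx (1.498 ± 0.233). Nfix ranked 90 and Hopx ranked 10537 by mean control RPKM among the 13288 tested genes. In Lhx2 cKO the ranges of Nfib and Zbtb18 overlapped, at 98.3 to 106 and 102 to 107 RPKM, and so did those of Nfic and Zbtb20, at 5.54 to 6.51 and 4.89 to 5.70 RPKM. The deposited lengths of Zbtb20 (30730 bases) and Tcf4 (27382 bases) are much longer than that of Zbtb18 (6138 bases), and a long length lowers the RPKM where the expressed transcripts are shorter.

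The authors' deposited table gives the same direction for all 8 genes. The authors' deposited table lists a log2 fold change of -0.82 for Nfix, -0.57 for Nfia, -0.51 for Tcf4, -0.35 for Nfib and -0.35 for Nfic, with adjusted p from 1.05e-09 to 0.0248. The authors' deposited table marks only Nfix of the 8 genes as changed, and its smallest marked absolute log2 fold change is 0.585, just above the value of Nfia.

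Genes linked to the NFI factors moved in both directions. The list held 12 genes described as NFI targets or partners, of which 11 were tested: 6 were called higher, 3 were called lower and 2 were not called, with a median log2 fold change of 0.27. The list was not split by whether NFI factors are described to activate or repress each gene. Over all tested genes 11.6% were called higher and 9.17% lower. The median of the list was 0.13 without control 1 and 0.41 without control 2. Apcdd1, a Wnt inhibitor induced in early gliogenesis, was at 81.3 and 88.02 CPM in control and at 128 and 163 CPM in Lhx2 cKO, a log2 fold change of 0.78 (adjusted p = 1.56e-07 in edgeR). Slc1a2, an astrocytic glutamate transporter, was at 15.6 and 14.96 CPM in control and at 28.2 and 28.8 CPM in Lhx2 cKO, a log2 fold change of 0.90 (adjusted p = 8.03e-07). Both rose while the NFI transcripts fell.

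Sox9, the glial fate factor that acts with NFIA, fell from 40.7 and 42.2 CPM to 25.1 and 24.9 CPM, a log2 fold change of -0.73 (adjusted p = 2.09e-06 in edgeR). Bbx, which encodes a high mobility group box protein, fell from 23.8 and 22.01 CPM to 13.9 and 14.7 CPM, a log2 fold change of -0.68 (adjusted p = 2.59e-04). The members of this list thus split into a larger group that rose and a smaller one that fell. Without Lhx2 cKO 2, 5 of the 11 genes were called in place of 9.

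Effectors of late radial glia rose more often than they fell. Of 17 listed genes 15 were tested, with 9 called higher, 2 called lower, 4 not called and a median log2 fold change of 0.66. The shares over all tested genes were 11.6% called higher and 9.17% called lower. Apoe, a lipid carrier, Tnc, a matrix glycoprotein, Bcan, a chondroitin sulfate proteoglycan, and Sparcl1, a matricellular protein, had the smallest p, with log2 fold changes of 1.68, 1.56, 1.30 and 1.04. The 2 genes called lower, named after their values were seen, were Ptprz1, a receptor phosphatase of outer radial glia, at 566 and 659 CPM in control and 417 and 434 CPM in Lhx2 cKO, and Lifr, a cytokine receptor subunit, at 14.6 and 17.9 CPM in control and 11.4 and 12.7 CPM in Lhx2 cKO. Ptprz1 and Lifr had log2 fold changes of -0.53 and -0.43 (adjusted p = 2.30e-04 and 0.0394 in edgeR). So the NFI genes, Ptprz1 and Lifr fell in the same libraries in which most of these effectors rose. Bulk counts do not say which cells carried these transcripts. Microglia markers (7 of 7 called higher) and endothelial and mural markers (5 of 7 called higher, 1 lower) also rose, and their part in these changes was not tested.

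Of 8 listed genes of early progenitors 7 were tested, with 1 called higher, 1 called lower and a median log2 fold change of -0.001. Calls in either direction made up 20.8% of all tested genes. Lin28b, an inhibitor of let-7 maturation, was at 3.13 and 2.04 CPM in control and at 5.98 and 5.01 CPM in Lhx2 cKO (log2 fold change 1.09, adjusted p = 0.00382 in edgeR). Igf2bp1, an RNA-binding protein, was at 66.8 and 63.0 CPM in control and at 49.0 and 43.7 CPM in Lhx2 cKO (-0.48, adjusted p = 4.19e-04). The other 5 genes, among them Hmga2, did not pass the test.

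Among the E protein, Id and proneural bHLH genes, the network in which the products of Tcf4 and Zbtb18 act, 12 of 12 were tested, with 1 called higher, 6 called lower and a median log2 fold change of -0.21. Of all tested genes, 11.6% were called higher and 9.17% lower. Id4, one of the inhibitors that sequester E proteins, was at 60.4 and 60.3 CPM in control and at 36.4 and 37.3 CPM in Lhx2 cKO (log2 fold change -0.71, adjusted p = 8.39e-07 in edgeR). Id3, another such inhibitor, moved the other way, from 7.01 and 6.602 CPM to 12.2 and 11.8 CPM (0.82, adjusted p = 6.71e-04). Of the proneural genes, Neurog1 fell from 4.41 and 5.201 CPM to 1.05 and 0.784 CPM (-2.38, adjusted p = 1.27e-06) and Neurog2 from 118 and 116 CPM to 87.2 and 86.9 CPM (-0.43, adjusted p = 7.06e-04).

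All 37 other genes whose symbols begin with Zbtb were tested, with 1 called higher, 3 called lower, 33 not called and a median log2 fold change of -0.07, where 20.8% of all tested genes were called in either direction. One of them, Zbtb8os, is named for its place opposite Zbtb8a and is no zinc finger gene. Zbtb7a, a repressor known from blood cell development, had a log2 fold change of -0.49 (adjusted p = 4.31e-04 in edgeR), Zbtb37 of -0.63 (0.00582) and Zbtb2 of -0.38 (0.0455). Zbtb8b was called higher at 1.51 (adjusted p = 0.00764), from 0.990 and 1.0003 CPM in control to 1.63 and 4.05 CPM in Lhx2 cKO, where the libraries lay far apart.

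**Figure D4:**
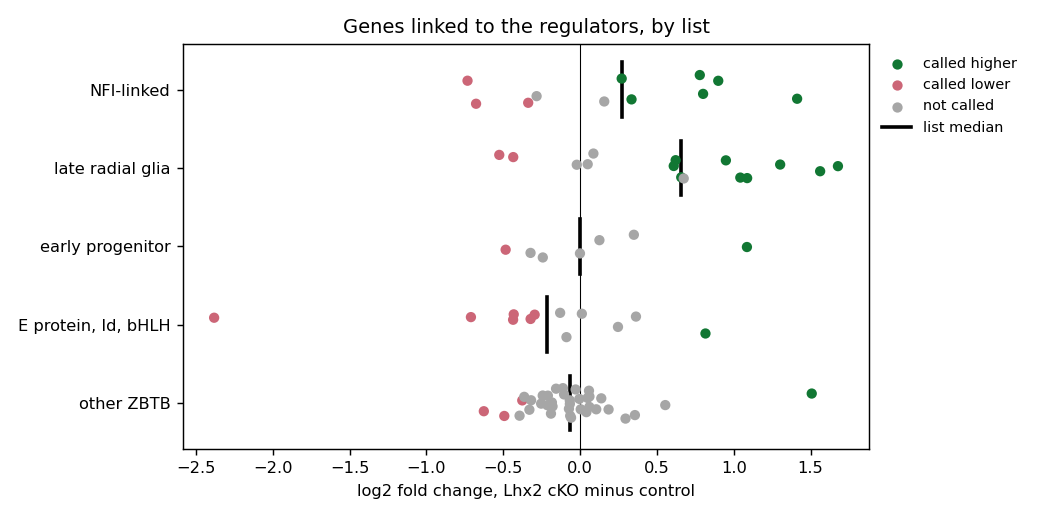
Log2 fold change, Lhx2 cKO minus control, of each tested gene in 5 lists, coloured by whether it was called higher, called lower or not called, with the median of each list as a black bar. The median is 0.66 for the late radial glia effectors and 0.27 for the NFI-linked genes (0.13 without control 1 and 0.41 without control 2), against -0.21 for the E protein, Id and bHLH genes.

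Among the progenitor and neuron markers, the summed level fell without overlap only for intermediate progenitors. Of the intermediate progenitor markers 4 of 6 were called lower and 0 higher, and their summed level was 773 to 786 CPM in control and 479 to 502 CPM in Lhx2 cKO. Of the radial glia markers 2 of 7 were called lower and 1 higher, and their sum was 711 to 765 CPM in control and 704 to 726 CPM in Lhx2 cKO. Of the neuron markers 2 of 7 were called lower and 1 higher, with sums of 4532 to 4612 and 4658 to 4917 CPM. By comparison, 9.17% of all tested genes were called lower and 11.6% higher.

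Markers of glia and of cells outside the neural lineage were mostly higher, where 11.6% of all tested genes were called higher and 9.17% lower. Of the astrocyte markers 4 of 6 were called higher (sums of 72.6 to 79.5 CPM in control and 118 to 121 CPM in Lhx2 cKO), and of the oligodendrocyte precursor markers 5 of 6 (46.9 to 53.6 and 87.9 to 96.5 CPM). All 7 microglia markers were called higher (107 to 108 and 221 to 246 CPM), as were 5 of 7 endothelial and mural markers, with 1 called lower (231 to 262 and 293 to 328 CPM), and 2 of 7 interneuron markers (208 to 242 and 281 to 289 CPM). Of 4 meningeal markers 1, Col1a1, was called lower, from 25.7 and 23.0 CPM in control to 4.44 and 1.65 CPM in Lhx2 cKO. The meningeal sum was 51.1 to 51.6 CPM in control and 33.0 to 33.8 CPM in Lhx2 cKO. Its decrease came from Col1a1. Col1a2, Col3a1 and Foxc1 were not called, with log2 fold changes of 0.25, 0.20 and -0.03. No marker that was tested stood at 0 in any library. Since 13288 of the 13289 genes in the table passed the low-count filter, this says little about which cell types were present. Listed markers missing from the table are not covered. The part of these cell types in the decrease of the NFI genes and Tcf4 was not tested.

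Relative to the summed radial glia markers, Nfia was at 0.427 and 0.400 in control and at 0.292 and 0.286 in Lhx2 cKO, as a ratio of CPM. The log2 ratio of the group means on this scale was -0.52 for Nfia, -0.77 for Nfix, -0.46 for Tcf4 and -0.30 for Nfib. For each of these the groups did not overlap, while Nfic overlapped. Zbtb18, which was not called, was also lower without overlap, at -0.165. Relative to the summed intermediate progenitor markers, Nfia, Nfib, Nfic and Tcf4 were higher without overlap, with log2 ratios of 0.108, 0.325, 0.336 and 0.17. Zbtb20 and Zbtb18, which were not called, were also higher without overlap, with larger log2 ratios of 0.599 and 0.457. On this scale Nfia was at 0.386 and 0.396 in control and at 0.443 and 0.400 in Lhx2 cKO. Nfix, with a log2 ratio of -0.14, overlapped between the groups, so none of the 5 called genes was lower without overlap. The intermediate progenitor sum was itself lower in Lhx2 cKO. Relative to the summed neuron markers all 5 called genes were lower with no overlap. The log2 ratios were -0.88 for Nfix, -0.63 for Nfia, -0.56 for Tcf4, -0.41 for Nfib and -0.40 for Nfic. Zbtb18 was also lower without overlap, at -0.278. The neuron sum was itself higher without overlap, at 4532 to 4612 CPM in control and 4658 to 4917 CPM in Lhx2 cKO. Genes already lower without overlap in CPM, as all of these were, therefore had to be lower on this scale. The share of all tested genes without overlap on these scales was not computed. These ratios were computed after the values were seen and are a description of the 4 libraries.

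The gene with the profile most like each of the 8 was sought among the 7697 genes whose mean reached 20 CPM, as the smallest root mean square distance of centred log2 CPM over the 4 libraries. It was Ppp2r1b for Nfia (distance 0.0102), Atrx for Nfib (0.0066), Rogdi for Nfic (0.0323) and Ankrd52 for Nfix (0.0438). For Nfix this gene shared the gap between the control libraries, with Ankrd52 at 122 and 86.3 CPM in control and at 59.9 and 65.7 CPM in Lhx2 cKO. It was Upf2 for Zbtb20 (0.0082), Notch3 for Zbtb18 (0.0068), Nfatc4 for Tcf4 (0.0204) and Lcorl for Hopx (0.13), whose low counts left no close match. With only 4 libraries such a likeness is a description.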

How the data were processed

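The authors deposited whole-number read counts for each gene for 2 control and 2 Lhx2 cKO libraries, grouped by their titles. Per the submitters' processing notes, Trim Galore, Subread, featureCounts and edgeR were used with build mm39; annotation, strand setting and filter are not given in the sources used here. The log2 fold change and log2 CPM columns, the p-value and adjusted p-value columns and the -log10 column are the authors' deposited comparison. The gene length is as deposited.

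Counts were tested over the whole table with edgeR 4.0.16 in R 4.3.3 (TMM, filterByExpr with a minimum of 10 counts, glmQLFit and glmQLFTest, two-sided, Benjamini-Hochberg over 13288 genes, no covariate). CPM and RPKM use TMM-scaled totals of the analysed genes. The standard error is the absolute log2 fold change over the square root of F. Both rest on a spread estimated jointly over genes, with 38.7 prior degrees of freedom, and not on each gene's own libraries alone. DESeq2 1.42.0, limma 3.58.1 (voom), other scalings and filters, a replicate block and leaving out each library were alternatives. The code was tested on simulated data. Replicates differed by more than sampling error (chi-square over its degrees of freedom of 13.9 in control and 14.3 in Lhx2 cKO).

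The 8 genes and all lists, which were NFI-linked, late radial glia, early progenitor, E protein, Id and bHLH, other Zbtb and cell type markers, were chosen with earlier results of these data known. One listed cortical marker is not reported here. Named were the 8 genes, Lhx2, at most 4 called genes of each list, those with the smallest p, and the most similar profile per gene, leaving out the 8 genes and shared name stems. Tcf3, Tcf12, Ptprz1, Lifr, Hmga2, Zbtb8os, Col1a2, Col3a1, Foxc1 and the genes with overlapping exons were named in addition, after their values were seen.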

Additional observations from a re-analysis of the deposited data

How the results depend on the processing

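With all libraries, between 2170 (DESeq2) and 2879 (upper-quartile factors) genes were called against 2758, and 5 of the 8 genes were called under each scaling, filter, the block and limma-voom, and 4 in DESeq2, which lost Nfic (log2 fold change -0.34, adjusted p = 0.0865); the cause was not tested. At an adjusted p under 0.01, a stricter threshold by construction, 1697 genes and 3 of the 8 (Nfia, Nfix, Tcf4) were called. Leaving out 1 library, where the lone library of a group is assumed to vary like the others, gave 1633 to 2396 called genes, lowest without Lhx2 cKO 2 and 1790 without control 1, and 3 to 5 of the 8. In these fits the log2 fold change ranged from -0.40 to -0.30 for Nfib, from -0.49 to -0.18 for Nfic and from -0.188 to 0.0317 for Zbtb20, which changed sign without Lhx2 cKO 2. Called genes ranged from 5 to 9 for the NFI-linked list, from 1 to 2 for early progenitors and from 2 to 5 for the other Zbtb genes, which also had 2 under the filter on a mean count of 50, a filter that tests fewer genes. The median of the early progenitor list, near 0, was 0.0014 with upper-quartile factors, and leaving out 1 library it ranged from -0.187 without Lhx2 cKO 2 to 0.0591 without Lhx2 cKO 1. The log2 ratio of the summed NFI RPKM was -0.62 with library totals, -0.54 without the length, and -0.74 to -0.48 leaving out 1 library, a check added after the data were seen. Hopx was not tested under that filter.

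Whether libraries with the same replicate number were paired is not given in the sources used here. Deviations of replicate 1 from replicate 2 had a correlation of -0.005 between the groups across genes. Such a correlation cannot show whether they shared a litter or a processing step. With the replicate block 2874 genes and 5 of the 8 were called.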
